A study of Bos taurus with 8 samples.

Results

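Tight junctions seal neighbouring epithelial cells to each other. Their strands are built from claudins, whose members set which ions pass between cells, and junctional adhesion molecules sit beside them and help to place the junction at the top of the cell side. EPCAM is a homophilic adhesion molecule of simple and glandular epithelia that stabilises claudins in the membrane. Cadherins hold cells together in the presence of calcium. Granulosa cells form a layered epithelium inside the follicle, but they are known for N-cadherin and gap junctions rather than for barrier-forming tight junctions.

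This account concerns 5 genes, which are the claudins CLDN4 and CLDN23, F11R (junctional adhesion molecule A), EPCAM and the cadherin CDH26. They were matched by symbol among 14084 named genes measured and are covered by 7 of 43794 probes, 1 each for CLDN4, CLDN23 and CDH26 and 2 each for F11R and EPCAM. Their lower ratios in group BHBH were known when they were chosen. Those ratios are therefore given as a description and without a test.

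The arrays carried RNA of granulosa cells aspirated from dominant follicles over 9 mm of Holstein cows on day 60 after calving, 42 h after a single prostaglandin injection. Group BHBH came from cows with severe negative energy balance, called by high blood beta-hydroxybutyrate, and group BHBL from cows with mild negative energy balance. All cows of both groups thus had some negative energy balance, and the labels give no ages. Each group comprised 12 cows in 4 pools of 3, so a level is that of a pool and the spread between cows inside a pool is not seen. One pool of each group shared an array, and each pairing was hybridised on 2 arrays with exchanged dyes, on slides 289 and 288, which gave 8 arrays and 4 pool pairs. Pools are not named in the labels. Arrays with the same area number were therefore taken as 1 pool pair, and the array titled with area 1.2 was counted with area 1.

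Between 29382 and 35499 probes per array were above background in BHBH and between 30189 and 35671 in BHBL, where background means the mean plus 2 SD of the negative control spots. All 12 granulosa markers listed were measured. Among them FSHR, the follicle stimulating hormone receptor, and INHA, inhibin alpha, were above background on 8 of 8 arrays in both groups, and INHA was saturated on 8 arrays. Ratios of arrays with the same area number correlated across features at r = 0.526 to 0.746, against -0.444 to 0.508 for other pairs of arrays, where features are not independent replicates.

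Levels below are normalised log2 intensities of a pool, each the mean of its 2 channels, and ratios are log2 of BHBH over BHBL. On this scale the background limit of the negative controls lay between 6.89 and 7.09. In such pooled RNA, fewer cells of a type and less RNA per cell cannot be told apart.

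Both claudins were at lower levels in BHBH. CLDN4 is a barrier claudin of tight and glandular epithelia that limits the passage of sodium. Its probe (EMBV3_33550) had levels of 9.28, 10.82, 8.82 and 11.22 in BHBH pools 1 to 4 and of 12.12, 14.69, 13.57 and 13.52 in BHBL pools 1 to 4. Every BHBH pool was below every BHBL pool, and the highest BHBH pool lay 0.90 below the lowest BHBL pool. The ratios were -2.84, -3.86, -4.75 and -2.30 in pool pairs 1 to 4, with a mean of -3.44 ± 1.09 (SD, n = 4 pool pairs), or 10.8-fold lower. Before any normalisation the CLDN4 spot read 374 to 3162 intensity units in BHBH channels and 3966 to 28921 in BHBL channels, so the raw readings did not overlap either.

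CLDN23, a less studied claudin of epithelial linings, was read near background in some pools. Its probe (EMBV3_03807) had levels of 7.25, 7.34, 8.43 and 9.41 in BHBH and of 8.96, 11.28, 11.25 and 10.56 in BHBL. The groups overlapped by 1 pool on each side, since BHBH pool 4 was above BHBL pool 1. BHBH pools 1 and 2 were only 0.15 and 0.45 above the background limit of their own pools, and the BHBH channel exceeded it on 7 of 8 arrays. Pair ratios were -1.71, -3.94, -2.83 and -1.15, with a mean of -2.41 ± 1.24 (SD, n = 4), or 5.30-fold lower.

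**Figure D1:**
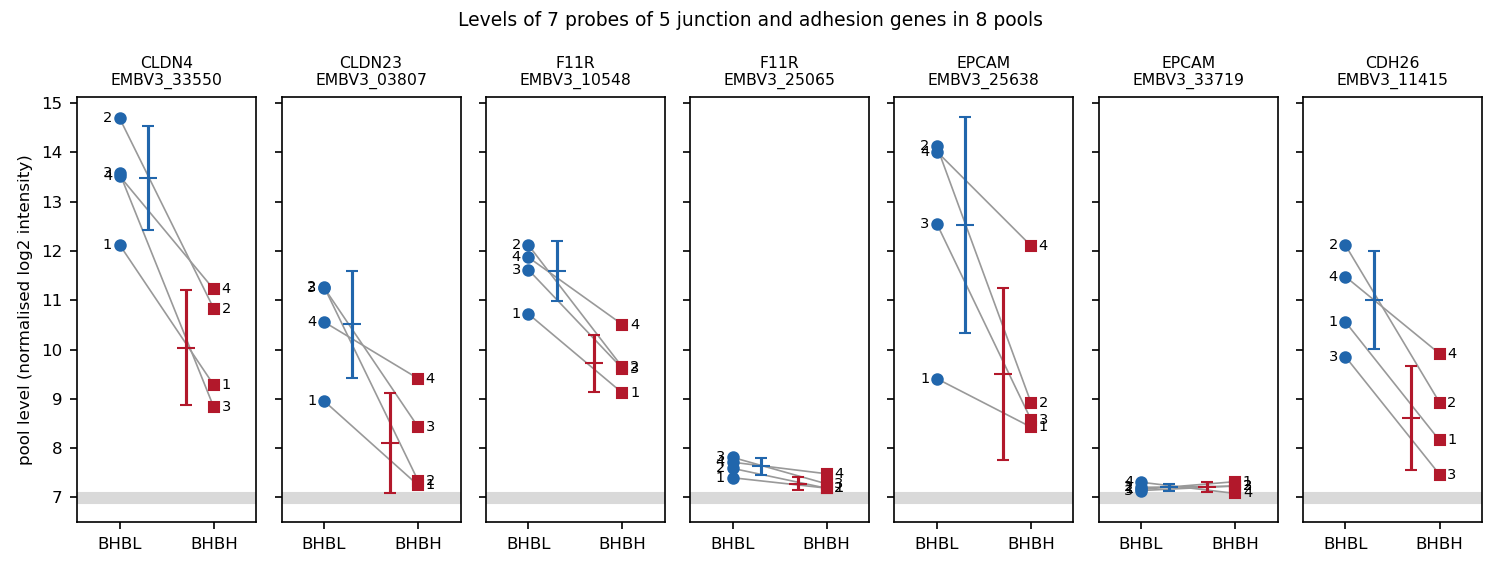
Levels of the 7 probes (vertical axis, normalised log2 intensity) in the 4 BHBL pools (blue circles) and 4 BHBH pools (red squares), with grey lines joining the pools of a pair and the pair number beside each point. Bars give the mean and SD of 4 pools, and the grey band spans the background limits of the 8 pools, 6.89 to 7.09. CLDN4 and the first F11R probe (EMBV3_10548) show no overlap between groups, EPCAM the widest spread, and the second probes of F11R and EPCAM lie near the band.

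F11R encodes a single-span adhesion protein that binds its like on the next cell, and in man and mouse also the leukocyte integrin LFA-1. Its brighter probe (EMBV3_10548) had levels of 9.12, 9.64, 9.61 and 10.51 in BHBH and of 10.72, 12.12, 11.62 and 11.87 in BHBL. The groups did not overlap, with 0.22 between the highest BHBH and the lowest BHBL pool. Before any normalisation the readings of this probe did overlap, at 502 to 1729 in BHBH channels and 1315 to 5440 in BHBL channels. All 4 pool pairs were close together here, at -1.61, -2.48, -2.01 and -1.37, and the mean of -1.87 ± 0.49 (SD, n = 4), or 3.64-fold lower, had the smallest SD of the 5 genes. A second F11R probe (EMBV3_25065) was lower on 8 of 8 arrays too, but by far less, at -0.35 ± 0.15 (SD, n = 4). That probe was dim, at 7.19 to 7.48 in BHBH and 7.40 to 7.81 in BHBL, and its groups overlapped.

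EPCAM varied most. Its first probe (EMBV3_25638) had levels of 8.43, 8.92, 8.58 and 12.10 in BHBH and of 9.41, 14.12, 12.55 and 14.01 in BHBL. The groups overlapped widely, since the lowest BHBL pool minus the highest BHBH pool was -2.69. BHBL pools spanned 26.2-fold and BHBH pools 12.8-fold. Within each pair the BHBH pool was nevertheless the lower one, with ratios of -0.98, -5.20, -3.97 and -1.91 and a mean of -3.02 ± 1.92 (SD, n = 4), or 8.09-fold lower. In pool pair 1 on slide 288 the raw readings were 592 in BHBH and 585 in BHBL. The sign of the ratio on that array thus rests on background correction and normalisation. Without pool pair 1 the mean was -3.69, and without pool pair 2 it was -2.29. The second EPCAM probe (EMBV3_33719) was dim and gave a ratio near 0. It lay at 7.08 to 7.32 in BHBH and 7.14 to 7.31 in BHBL, at most 0.40 above the background limit, with a ratio of 0.01 ± 0.17 (SD, n = 4). The EPCAM result thus rests on 1 of 2 probes, and which of the probes reports the transcript was not tested.

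CDH26 encodes a cadherin of mucosal epithelia that in man binds integrins with the beta 7 chain. Its probe (EMBV3_11415) had levels of 8.16, 8.92, 7.47 and 9.91 in BHBH and of 10.56, 12.12, 9.85 and 11.48 in BHBL. Only BHBH pool 4 and BHBL pool 3 were out of order, and the lowest BHBL pool minus the highest BHBH pool was -0.06. The ratios of -2.40, -3.19, -2.39 and -1.56 gave a mean of -2.39 ± 0.66 (SD, n = 4), or 5.23-fold lower.

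All 5 genes were thus lower in BHBH on 8 of 8 arrays, a pattern found in 1.91% of all 32448 features and itself part of why the genes were chosen. CLDN4 and F11R were the 2 whose pool levels did not overlap between groups, which held for 1.57% of features in that direction and for 1.34% in the other. All but EPCAM were at least 2-fold lower in each of the 4 pool pairs, as were 0.173% of features. The 2 arrays of a pool pair differed by at most 0.53 in log2 ratio for the first probes of the 5 genes, and the mean ratios on slides 289 and 288 were -3.42 and -3.45 for CLDN4, -2.28 and -2.53 for CLDN23, -1.93 and -1.80 for F11R, -3.10 and -2.93 for EPCAM, and -2.41 and -2.36 for CDH26.

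The joint effect of dye and slide on the log2 ratio of Cy5 over Cy3 lay between -0.08 ± 0.23 (SE) for EPCAM and 0.12 ± 0.15 for CLDN23. Across all features this effect was past adjusted p of 0.05 in limma for 28.7%. Genes lower on all arrays in both dye orders are unlikely to carry a large effect of this kind, so the values of the 5 genes are a description.

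**Figure D2:**
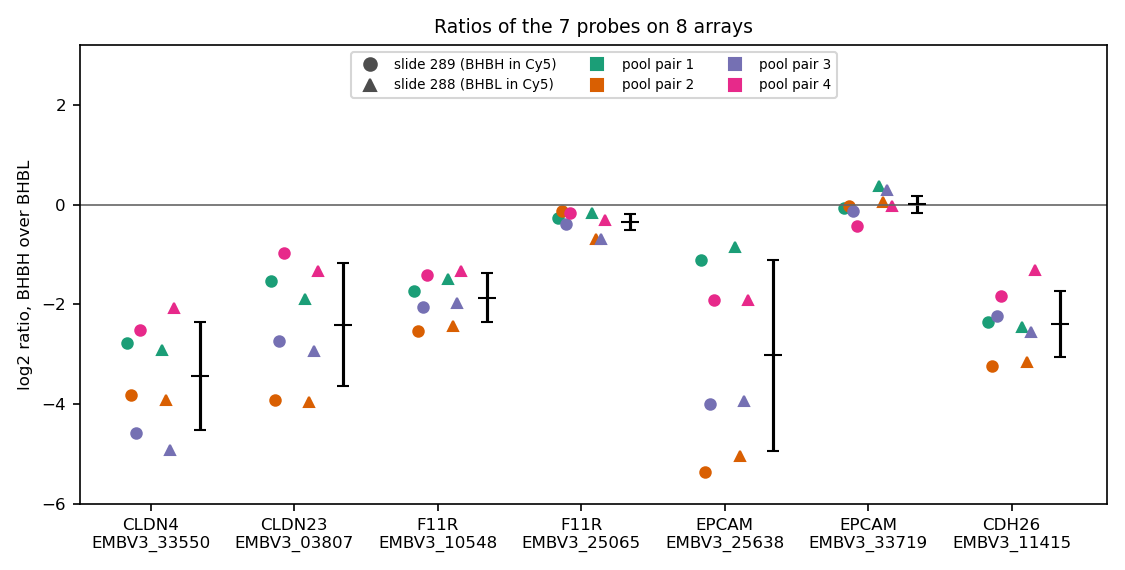
Log2 ratios of BHBH over BHBL (vertical axis) for the 7 probes on each of 8 arrays, circles for slide 289 and triangles for slide 288, coloured by pool pair. Black bars give the mean and SD over 4 pool pairs. Points of one colour lie close together, and all points of 6 probes are below 0, while those of the second EPCAM probe scatter around it.

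The 5 genes ranked partly alike from pool to pool. Within a group r was as low as 0.218 for CLDN23 with CDH26 in BHBL and 0.336 for CLDN4 with CLDN23 in BHBH. How often other features had the same highest pools was not counted. BHBL pool 2 had the highest level of its group and BHBH pool 4 the highest of its group for 5 of 5 genes. BHBL pool 1 was the lowest of its group for 4 genes, with BHBL pool 3 the lowest for CDH26. The smallest difference fell in pool pair 4 for 4 genes, in which the BHBH pool was high, and in pool pair 1 for EPCAM, in which the BHBL pool was low.

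Levels of 2 genes of the set correlated over the 8 pools at r = 0.761 to 0.961 (median 0.904 over 10 combinations). The pools share arrays and the group difference enters these values. After the mean of each group was removed, r ranged from 0.338 for CLDN23 with CDH26 to 0.964 for EPCAM with F11R (median 0.803). The spread between pools of the same group was also wide beside that of other genes. The SD over BHBL pools was 1.05 for CLDN4, 1.09 for CLDN23, 0.61 for F11R, 2.20 for EPCAM and 0.997 for CDH26, against a median of 0.26 over named genes. EPCAM stood above 99.3% of named genes by this SD and F11R above 86.2%.

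The genes whose levels followed each member most closely over the 8 pools were taken from 14084 named genes, so a high r is built into the choice. For CLDN4 they were the cell surface mucin MUC1 (r = 0.971), the tetraspanin TSPAN1 (0.967) and the phospholipase LIPH (0.958). MUC1 had a ratio of -3.14 ± 1.07 (SD, n = 4) and TSPAN1 of -2.88 ± 1.28. For CLDN23 they were TTC22 (r = 0.981), the mucin MUC20 (0.969) and FAM46B (0.969). F11R was followed by DSTN, an actin-severing protein (r = 0.984), by LIPH again (0.978) and by PI3, the elastase inhibitor elafin (0.959). EPCAM was followed by the guanylate-binding protein gene GBP4 (r = 0.988), the fucosyltransferase gene FUT5 (0.988) and the choline transporter-like gene SLC44A4 (0.982). The closest to CDH26 were CYP3A28, PLA2G4E and MAX (r = 0.965, 0.965 and 0.943), whose ratios were much smaller, at -0.50, -0.19 and -0.41. PLA2G4E exceeded background on 1 BHBH channel of 8, so its likeness rests on dim readings.

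Genes beside the members in the RefSeq order of the cow genome (assembly ARS-UCD2.0) were looked up by position, and 4 of them were measured. CLDN3, the neighbour of CLDN4 and itself a barrier claudin, had a ratio of -0.18 ± 0.21 (SD, n = 4), and exceeded background on 4 BHBH and 6 BHBL channels. F11R lies between USF1 (-0.24 ± 0.17) and TSTD1 (-0.58 ± 0.37), both lower in 4 of 4 pool pairs and on 7 of 8 arrays. How many of all features were lower in 4 of 4 pool pairs was not counted. CDH4, the cadherin gene next to CDH26, was at 0.06 ± 0.17.

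The other genes of cell junctions and epithelial adhesion were taken from 10 lists, of which 125 genes were measured. With limma, 0 of the 125 passed adjusted p under 0.05, as did 0 of all 32448 features (0%). Their median ratio was -0.08, beside -0.01 over all features, with 84 lower and 41 higher on average. A looser rule asked for an unadjusted p below 0.05 with a change of 1.5-fold or more, and genes that meet it are not calls. It took 13 of the 125 (10.4%) as lower and 0 as higher. It took 1.44% of all features as lower and 0.0894% as higher, and 2.2% and 0.0923% of named genes. Without pool pair 3 the 13 became 7, and without pool pair 1 the count over all features rose from 466 to 980.

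The other claudins had mean ratios nearer 0 than CLDN4 and CLDN23, although their ratios in single pool pairs ran from -2.47 to 2.11. Of 17 measured besides CLDN4 and CLDN23, CLDN7, a basolateral claudin that binds EPCAM, was the 1 that met the looser rule, at -0.96 ± 0.36 (SE), with -2.30 in pool pair 2 and -0.60 to -0.41 in the others. CLDN11, found in testis and myelin, was at -0.96 ± 0.45, with 0.29 in pool pair 1 and -2.47 in pool pair 2. Without pool pair 2 these means were -0.52 and -0.45. The list's median over all 4 pool pairs was -0.07. Among 19 tight junction partners the scaffold protein gene TJP3 met the looser rule, at -0.89 ± 0.20. CGN, cingulin, was at -0.46 ± 0.19, and the virus receptor gene CXADR at -0.37 ± 0.11, although CXADR was at 0.033 on slide 289 alone. OCLN, occludin, and TJP1, the broadly expressed scaffold ZO-1, were chosen after their values were seen and were at -0.55 ± 0.23 and -0.16 ± 0.20. Without pool pair 2 OCLN was at -0.28. It exceeded background on 5 BHBH and 7 BHBL channels, and was at 0.31 on slide 288 in pool pair 1.

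Adherens junction genes, cadherins and polarity genes had 0 members past the looser rule among 10, 18 and 11 measured. The catenin genes CTNND1 and CTNNA1, which anchor cadherins, were at -0.31 ± 0.15 and -0.34 ± 0.17 (SE), and at -0.16 and -0.22 without pool pair 2. E-cadherin, CDH1, was near background in both groups and exceeded it on 3 BHBH and 7 BHBL channels, with a ratio of -0.14 ± 0.12. N-cadherin, CDH2, had a mean level of 11.47 in BHBH and 11.19 in BHBL, and pair ratios of 2.02, -2.01, 0.71 and 0.42. Both were chosen after their values were seen. The protocadherin-like CDHR2 was at -0.44 ± 0.17 (-0.26 without pool pair 4) and CDH11 at 0.20 ± 0.09. The polarity scaffold gene MPP5 was at -0.49 ± 0.11, but its sign turned with the slide, at 0.15 on slide 289. LIN7C, its partner, was at 0.35 ± 0.10 and higher on 8 of 8 arrays, as were 0.958% of all features.

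The desmosome list had 13 measured genes and a median of -0.16, with 2 past the looser rule. PPL, periplakin, which links desmosomes and keratin filaments in surface epithelia, was at -3.33 ± 1.02 (SE), with -1.27, -4.78, -6.23 and -1.05 in pool pairs 1 to 4. PKP2, a plakophilin, was at -0.79 ± 0.25. DSP, desmoplakin, had opposite signs, at 1.48 in pool pair 1 and -3.19, -3.38 and -0.80 in the others. The DSC2 probe used, EMBV3_07540, exceeded background on 0 BHBH and 6 BHBL channels, with ratios of 0.03, -0.62, -0.73 and -0.99, while another DSC2 probe, above background on all 8 arrays, was at 0.13.

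Epithelial surface and splicing genes held 7 of the 13. PRSS8, prostasin, a membrane-bound protease, was at -2.09 ± 0.25 (SE), the lowest adjusted p of the 125 (0.714, limma), and TSPAN1 at -2.88 ± 0.51. ESRP1, an epithelial splicing factor, was at -1.67 ± 0.41, the sorting protein gene MAL2 at -1.02 ± 0.31, EPS8L1 at -0.97 ± 0.30 (-0.63 without pool pair 2) and SPINT1, an inhibitor of prostasin-like proteases, at -0.86 ± 0.20. SPINT1 exceeded background on 2 BHBH and 7 BHBL channels, with a mean level of 6.80 in BHBH. A probe annotated as CEACAM8, an older symbol of bovine CEACAM1 in the RefSeq gene table, was at -0.73 ± 0.13, and reads of near-identical family members cannot be kept apart on it. The protease gene TMPRSS2 was at -0.22 ± 0.10. The tetraspanin gene CD9 was at 1.12 in pool pair 1 and -2.43 to -1.39 in the others, with a mean of -0.73 without pool pair 2 and -1.91 without pool pair 1. The list's median was -0.61 over 16 genes, with -1.34 in pool pair 2 and -0.30 to -0.20 in the others.

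Among 10 epithelial transcription factors, KLF5 (-1.85 ± 0.58, SE) and EHF (-0.89 ± 0.30) met the looser rule, and the median was -0.54. EHF exceeded background on 4 BHBH channels of 8 and was at -2.001 in pool pair 2, without which its mean was -0.52. ELF3 was at -0.58 ± 0.24 (-0.31 without pool pair 2) and OVOL1 at -0.50 ± 0.14. OVOL1 levels in BHBH pools were 6.21 to 6.66, below the background limit on this scale, although it exceeded background on 6 BHBH channels. On slide 289 OVOL1 was at 0.15 and 0.26 in pool pairs 1 and 3. GRHL2, known as an activator of claudin genes in mouse and man and chosen after its value was seen, was at -0.09 ± 0.08. Of 6 measured repressors of epithelial genes 0 met the rule, with SNAI1 at -0.21 ± 0.09. SNAI2 exceeded background on 0 BHBH and 5 BHBL channels, with pair ratios of 0.39, -0.60, -0.41 and -0.86. The integrin chain ITGAL, part of the F11R ligand LFA-1, was at -0.12 ± 0.20, and CD44 at 0.12 ± 0.59, both in a list of binding partners with a median of 0.01.

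**Figure D3:**
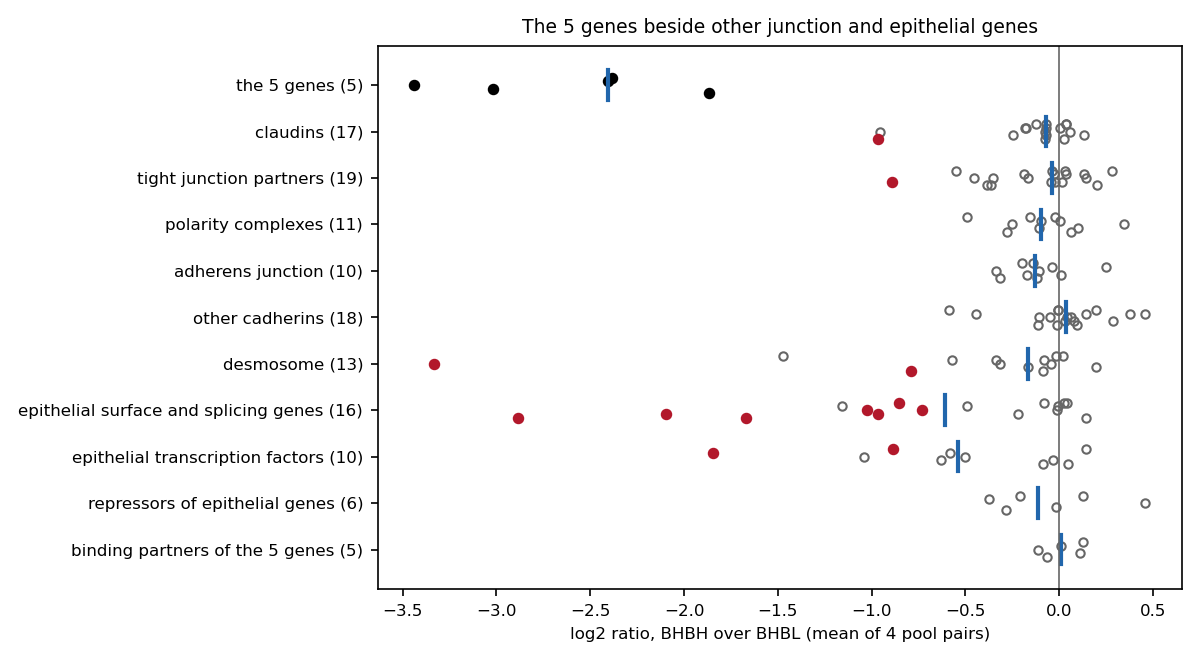
Mean log2 ratio over 4 pool pairs (horizontal axis) of each measured gene, by list, with the number measured in parentheses. Filled points are lower in BHBH by the looser rule (unadjusted p below 0.05, 1.5-fold or more), black for the 5 genes, which were chosen on these ratios, and red for the others. Blue lines are list medians, -2.41 for the 5 genes and between -0.61 and 0.04 for the others.

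Markers of other cell types moved between pools as well. The mean ratios of 5 of 5 simple epithelium keratins and 9 of 10 glandular or mucosal genes were lower in BHBH, with medians of -1.49 and -1.84. In pool pairs 1 to 4 the glandular medians were -0.62, -2.80, -1.82 and -1.61. The medians of the simple keratins changed sign, at 0.20, -2.81, -3.68 and -1.84, as did those of the squamous list, at 0.046, -1.21, -0.33 and -0.14. By the looser rule 8 of 10 glandular genes (80%), 2 of 12 squamous genes (16.7%) and 2 of 5 simple keratins (40%) were lower. That rule took 1.44% of all features and 2.2% of named genes as lower, and the lists were chosen with earlier results of these data known. The keratin gene KRT7 was at -2.66 ± 0.39 (SE) and lower on 8 of 8 arrays, whereas KRT8, saturated on 1 array, was at 3.98 in pool pair 1 and -4.22 to -2.31 in the others. KRT4, a keratin of stratified mucosa, was at -3.13 ± 0.90, while KRT5 and KRT6A of the same squamous list were at -0.55 and 0.02. By mean ratio 8 of the 12 squamous genes were lower and 4 higher. The mucin genes MUC4 and MUC16 were at -1.21 ± 0.44 and -1.47 ± 0.39.

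The summed linear intensity of the glandular list ranged from 3360 to 8300 in BHBH pools and from 6350 to 105000 in BHBL pools. That of the simple keratins ranged from 5310 to 109000 and from 42500 to 136000, with saturated spots of KRT8 on 1 array and of KRT19 on 2, and that of the squamous list from 2670 to 5540 and from 4720 to 82000. The 5 genes themselves summed to 1960 to 9880 in BHBH and 8830 to 55500 in BHBL. In none of these 3 lists was a measured marker below background on all arrays of a group. Ciliated or oviduct markers (6 measured) had a median of -0.02, mesothelial or ovarian surface markers (5) -0.28 and oocyte markers (5) 0.01. How much of the lower ratios of the 5 genes goes with these epithelial markers was not tested.

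The list medians of blood, stroma and granulosa markers changed sign between pool pairs, while some of their members were lower throughout. Leukocyte markers (11 measured) had medians of 0.85, -0.25, 0.28 and -1.64 in pool pairs 1 to 4, and PTPRC, the leukocyte phosphatase CD45, was at -0.34 ± 0.45 (SE) and the monocyte gene CD14 at 0.55 ± 1.10. The 2 leukocyte markers past the looser rule were S100A8 and S100A9, calcium-binding protein genes abundant in neutrophils and named after their values were seen, at -2.54 ± 0.75 and -2.38 ± 0.73. Both were lower on 8 of 8 arrays, as the 5 genes were. The list as a whole did not share this, with 6 of 11 markers lower and 5 higher by mean ratio. CD14 was at 2.95, 1.46, 1.25 and -3.46 in pool pairs 1 to 4. Which cells gave the S100A8 and S100A9 readings was not tested, nor was the part of such cells in the ratios of the 5 genes. Theca and stroma markers (8) had medians of 1.94, -0.96, -2.17 and -1.51, with the stromal proteoglycan gene LUM at -1.32 ± 0.42 (-0.84 without pool pair 3) and the steroidogenic enzyme gene CYP17A1 at -0.21 ± 0.08, both lower on 8 of 8 arrays. INSL3 of the same list went the other way, at 0.23 ± 0.13 and lower in 0 of 4 pool pairs. By mean ratio 7 of these 8 markers were lower and 1 higher. Red cell markers (6) had medians of 1.199, -1.749, -0.98 and 0.19 and endothelial markers (5) of 0.14, -0.47, 0.08 and 0.11. The 12 granulosa markers had medians of -0.58, 0.68, 0.05 and 0.88, with FSHR at 0.32 ± 0.64. INHA, INHBA and SERPINE2 of that list were saturated on 8 of 8 arrays, which limits their ratios. For the 5 genes the medians were -1.71, -3.86, -2.83 and -1.56.

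**Figure D4:**
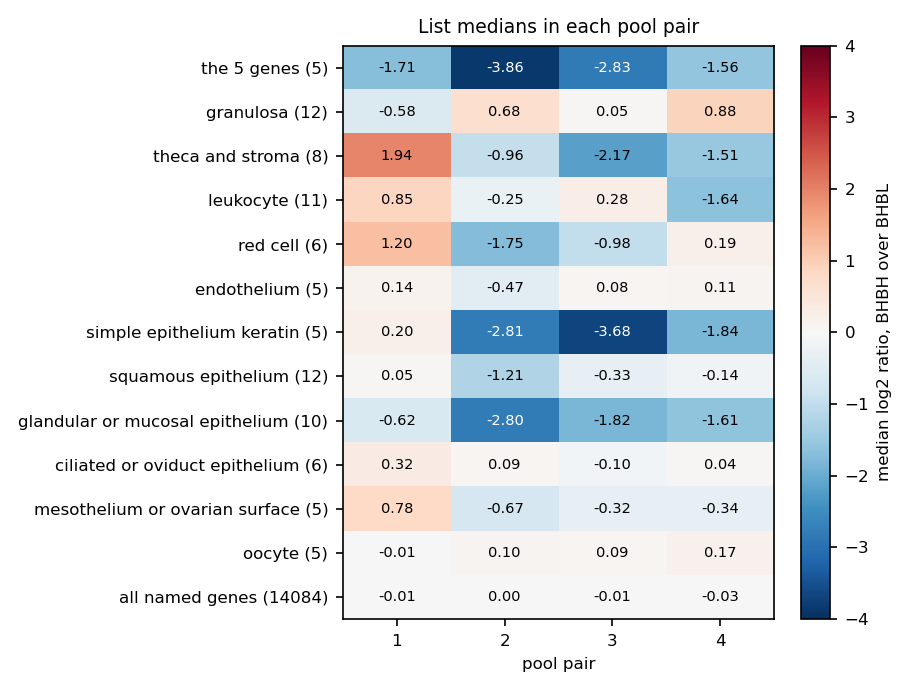
Median log2 ratio of BHBH over BHBL in each pool pair (columns) for the 5 genes, for marker lists of other cell types and for all named genes (rows, number measured in parentheses), with blue for lower and red for higher in BHBH. The 5 genes and the glandular or mucosal list are below 0 in every pair. All other marker lists change sign between pairs, with the simple keratin, squamous and mesothelial lists above 0 in pool pair 1.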

How the data were processed

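Scanner files deposited by the authors hold, per the file headers, median foreground and local background intensity of every spot in Cy3 and Cy5, uncorrected. The authors' deposited whole-series table holds log2 ratios. The submitters' processing notes name limma without a version, and the table's background correction and normalisation are unstated there. Compared with the scanner values it ran as BHBH over BHBL on every array (r = 0.942 to 0.96 across probes, medians -0.0142 to 0.0396), and it served as an alternative.

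In R 4.3.3 with limma 3.58.1, background was corrected by normexp (offset 50) and ratios normalised by loess, with control spots at weight 0 and spots marked as ignored left out. Arrays of one area number were taken to hold the same extracts and were averaged. With slide means subtracted they correlated at r = 0.843 to 0.893 across features, and each of the 8 arrays matched best with its own area number. Probes were kept (37884) when either channel exceeded the mean plus 2 SD of 153 negative controls on 4 or more arrays. The brightest probe stood for each gene, which left 32448 features. The 4 averages were tested against 0 with limma's lmFit and eBayes and adjusted by Benjamini-Hochberg over all features, so p-values measure the spread between pools. The joint effect of dye and slide was fitted with limma over the 8 arrays, with the area number as a random block. Pool levels came from separate channels after Aquantile scaling.

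The 5 genes and all lists were chosen with earlier results of these data known. The genes named are those of the junction lists past the looser rule, up to 2 further genes of each list by unadjusted p, some of the first 3 markers of a list, the 3 genes most like each member, and genes marked as chosen by position or after their values were seen (KRT19 and SERPINE2 for their saturated spots). The fit was checked on simulated data. The 18 alternatives covered background correction, normalisation, probe filter, probe choice, replicate block, pairing, slide, weights and each pool pair left out.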

Additional observations from a re-analysis of the deposited data

Results flagged for a closer look

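In 5 of 113 groups of 4 values examined (pool levels of the 7 probes, pair ratios of the genes named and list medians) 1 value lay far from the other 3, where chance gives about 1 in 20. INSL3, KRT5 and KRT6A were not among the genes examined here. EPCAM (EMBV3_25638) had a level of 12.10 in BHBH pool 4 against 8.43 to 8.92 in the other BHBH pools. CLDN7 had a ratio of -2.30 in pool pair 2 against -0.60 to -0.41. ITGAL was at -0.83 in pool pair 4 against 0.03 to 0.20. The median of the epithelial surface and splicing genes was -1.34 in pool pair 2 against -0.30 to -0.20, and that of the endothelial markers -0.47 in pool pair 2 against 0.08 to 0.14.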

How the results depend on the processing

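The ratios of all 5 genes stayed below 0 under the 18 alternatives tried, at -3.82 to -3.001 for CLDN4, -2.83 to -1.90 for CLDN23, -2.03 to -1.11 for F11R, -3.69 to -1.50 for EPCAM and -2.66 to -2.12 for CDH26. The values nearest 0 for F11R (-1.11) and EPCAM (-1.50) came from averaging both probes of the gene, 1 of which is dim in each case. Leaving out 1 pool pair gave -3.82 to -3.001, -2.83 to -1.90, -2.03 to -1.66, -3.69 to -2.29 and -2.66 to -2.12 in the same order.

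The count of features at adjusted p under 0.05 was 0 in the fit of 4 averages and with each pool pair left out, 120 with the 8 arrays and the area number as a replicate block, and 215 with the 8 arrays as separate ratios, which counts both arrays of an extract as replicates. The looser count of lower features, 466, was 782 with the replicate block, 783 with separate ratios, 1460 on slide 288 alone and 328 to 980 with 1 pool pair left out. Among junction genes that count, 13, was 18 with the replicate block, 21 with array weights and 7 to 19 with 1 pool pair left out, and the junction median of -0.08 was -0.16 on slide 288 alone and -0.12 to -0.05 with 1 pool pair left out. The cause of these changes was not tested.

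Among other named genes, 21 values had the opposite sign, none of them past the adjusted threshold. INSL3, KRT5 and KRT6A were not followed through the alternatives. On slide 288 alone CLDN3 was at 0.16, CDH4 at -0.25, INHA at -0.23, INHBA at -0.46, SERPINE2 at -0.11 and TJP1 at 0.025. On slide 289 alone CXADR was at 0.033, GRHL2 at 0.20, ITGAL at 0.34 and MPP5 at 0.15. With probes above background on all 8 arrays, another DSC2 probe took the place of the first, at 0.13. With 1 pool pair left out CD14 ranged from -0.25 to 1.89, CD44 from -0.36 to 0.82, CDH2 from -0.29 to 1.05, CDH4 from -0.0014 to 0.13, FSHR from -0.24 to 0.94, INHBA from -0.11 to 0.28, ITGAL from -0.22 to 0.12 and PTPRC from -0.77 to 0.053. Signals near background, as for CDH1, CLDN3, CXADR, OCLN, OVOL1, SPINT1 and the second probes of F11R and EPCAM, limit what their ratios can show.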
